A study of Mus musculus with 16 samples.

Results

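The genes of sterol synthesis, sterol sensing, uptake and export were examined in mouse liver RNA hybridised to whole-transcript arrays. The list held 38 genes by name, covering the mevalonate route, the steps from squalene to cholesterol, the control of the transcription factor SREBP, and the proteins that bring cholesterol into the cell, move it and export it. Of these, 34 were measured by a probe set that carries 1 gene symbol, out of 18820 genes tested in all. Acat2, Soat1 and Soat2 were not in the table that pairs probe sets with genes, so the esterification step had no measured gene, and Mbtps2 had only a probe set shared with Yy2 and was not used. For a gene with several probe sets, the brightest on average was used.

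The arrays formed 4 groups of 4, all from individually housed male mice of 14 to 16 weeks on standard chow. The groups were fed wild type (C57Bl/6J), fed vanin-1 null (knockout, KO), and both genotypes after 24 h without food from 09:00 to 09:00, with lights on from 21:00 to 09:00. Vanin-1, encoded by Vnn1, is a pantetheinase anchored to the cell surface, and the labels name neither the kind of null allele nor any cell type restriction of it. No label states outright that the 4 arrays of a group come from 4 animals, so the p-values rest on the spread between arrays, which may be technical in part. In the text an array is named by its group and title number, and a level is a log2 intensity given as mean ± SD (n = 4). The difference of 2 group means on this scale is a log2 difference with its standard error (SE), and "called" means an adjusted p below 0.05 in limma, adjusted over all genes of that comparison. A fold is given as "at least" where the lower group mean lay under 5.29, the highest array median, because signal over background is small there.

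Cholesterol is built from acetyl-CoA through mevalonate, isoprenoid diphosphates, squalene and lanosterol, and the liver is a main site of this synthesis. When sterols in the endoplasmic reticulum are low, Scap carries SREBP to the Golgi, where proteases release its transcription factor part, which switches on the genes of synthesis and uptake. When sterols are high, the Insig proteins hold Scap and SREBP back, and oxysterols activate liver X receptors, which switch on export genes and Mylip.

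Vnn1 separated the genotypes on every array. Its level was 6.71 to 10.34 in fed wild type, 9.93 to 11.47 in fasted wild type, 3.80 to 4.06 in fed KO and 3.67 to 4.26 in fasted KO. Array medians lay between 5.19 and 5.29, and across genes the correlation of arrays within a group was 0.989 to 0.996. The mean level of 9 of 10 listed hepatocyte markers measured was 12.70 to 12.90 on all 16 arrays. Of the 9, 2 were called higher and 0 lower on fasting in wild type, and 0 were called in KO. Among all tested genes 3.34% were called higher in wild type and 4.53% in KO. Fasted WT 4 stood apart with a mean of 8.50 over 8 of 11 listed pancreatic acinar markers measured, against 4.04 to 4.25 on the other 15 arrays. Fed KO 4 stood apart with a mean of 10.98 over 9 of 10 listed acute phase genes measured, against 7.33 to 9.05 on the other 15 arrays. Both arrays stay in the values given, and values without them are given where they change a call.

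Stretches of 250 bases before the RefSeq start (GRCm38.p6) are shown for 5 members that represent the main patterns in the data, written along the gene's own strand. They are Hmgcs1, Idi1 and Nsdhl from the synthesis steps, which fell on fasting, and the pair Insig1 and Insig2, which moved in opposite directions. The stretch between the start sites of Abcg5 and Abcg8, which stand head to head, is shown because the pair was not called in any comparison. Capitals mark the letters CCAAT on either strand (ATTGG on the other), and in Hmgcs1 also a match to TCACNCCAC, the core of a sterol regulatory element. No capitals stand in the stretch between Abcg5 and Abcg8.
Hmgcs1, chr13:119690101-119690350, plus strand: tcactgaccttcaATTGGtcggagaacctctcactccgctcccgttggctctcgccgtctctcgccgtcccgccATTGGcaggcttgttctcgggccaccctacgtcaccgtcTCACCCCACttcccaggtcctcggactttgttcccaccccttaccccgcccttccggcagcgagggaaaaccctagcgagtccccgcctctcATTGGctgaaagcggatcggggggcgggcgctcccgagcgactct
Idi1, chr13:8885356-8885605, plus strand: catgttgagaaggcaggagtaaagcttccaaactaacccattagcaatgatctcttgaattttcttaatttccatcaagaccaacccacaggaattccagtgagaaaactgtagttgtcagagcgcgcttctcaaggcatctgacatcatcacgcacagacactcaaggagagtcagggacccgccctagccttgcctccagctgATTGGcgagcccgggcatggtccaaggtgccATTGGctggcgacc
Nsdhl, chrX:72918271-72918520, plus strand: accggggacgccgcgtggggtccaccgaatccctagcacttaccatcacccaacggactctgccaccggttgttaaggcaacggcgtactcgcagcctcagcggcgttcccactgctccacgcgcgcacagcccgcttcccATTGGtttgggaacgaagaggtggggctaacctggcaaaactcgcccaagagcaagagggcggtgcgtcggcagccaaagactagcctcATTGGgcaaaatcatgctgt
Insig1, chr5:28071162-28071411, plus strand: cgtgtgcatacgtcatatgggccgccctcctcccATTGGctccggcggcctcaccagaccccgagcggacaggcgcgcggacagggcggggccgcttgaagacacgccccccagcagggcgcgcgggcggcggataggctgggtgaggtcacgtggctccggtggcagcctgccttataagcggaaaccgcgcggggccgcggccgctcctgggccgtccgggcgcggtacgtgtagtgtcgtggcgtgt
Insig2, chr1:121332590-121332839, minus strand, the outermost of 3 starts: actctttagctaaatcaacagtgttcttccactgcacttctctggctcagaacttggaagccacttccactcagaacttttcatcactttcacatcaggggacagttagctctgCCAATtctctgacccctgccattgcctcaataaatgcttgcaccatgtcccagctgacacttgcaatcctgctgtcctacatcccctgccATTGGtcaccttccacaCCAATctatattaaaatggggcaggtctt
Abcg5 to Abcg8, chr17:84683012-84683120, plus strand: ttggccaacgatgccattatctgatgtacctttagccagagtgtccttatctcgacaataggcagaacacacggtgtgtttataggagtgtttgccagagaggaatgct

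CCAAT letters were common near the starts of these genes. RefSeq windows from 250 bases before to 50 after the start were found for 28 of the 34 measured members, and not for Abcg1, Fdft1, Fdps, Npc1, Sqle and Stard4. CCAAT was found on either strand in 25 of the 28 (89.3%), against 41.9% of the 14749 tested genes with such a window. The 28 members had 35 windows, and a gene counted once if any of its windows held the letters. The letters were present in 15 of the 16 members with a window that were called lower in both fasting comparisons (93.8%). Among the other 12 members with a window, 10 held them (83.3%), so most members of both kinds carried them. Mbtps1, Scap and Abca1 had none. The CCAAT of Abcg5 lies at its start site and is the same run of letters as 1 of the matches of Abcg8, which begins 114 bases before the start of Abcg8. The GC box letters GGGCGG were in 23 of the 28 (82.1%) against 53.4% of tested genes, and CACGTG was in 6 (21.4%) against 9.57%. The exact core TCACNCCAC was found in 1 of the 28 (3.57%), Hmgcs1, at 137 bases before the start, against 1.42% of tested genes. In Hmgcs1 this core overlapped none of the CCAAT matches. These are matches of letters, both strands searched, and were not tested as binding sites.

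**Figure D1:**
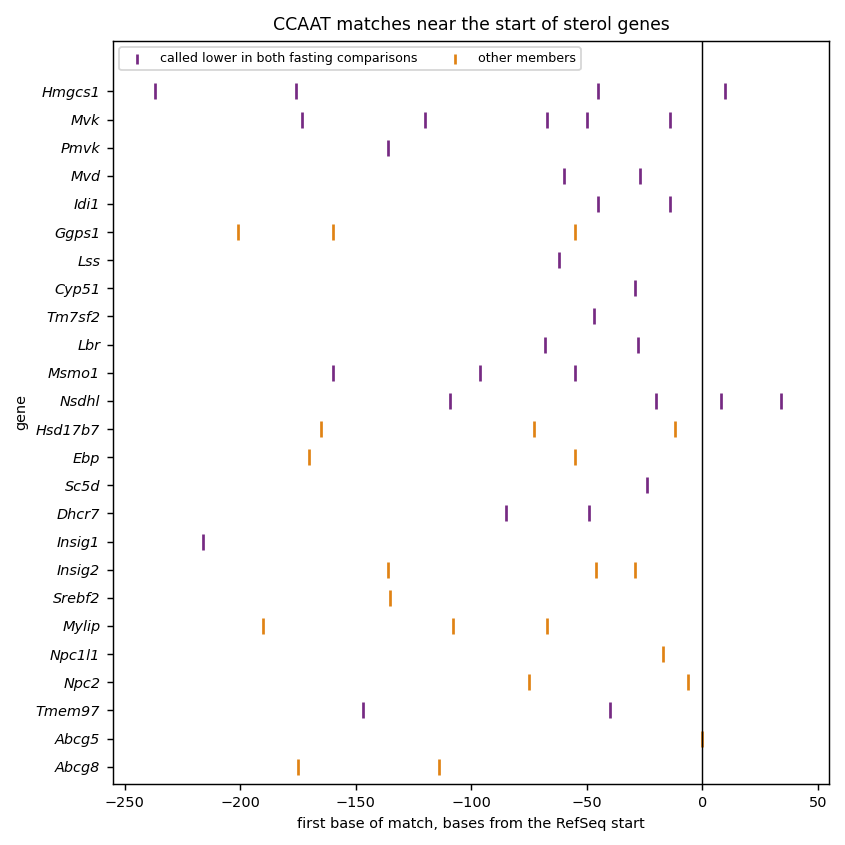
Position of CCAAT matches (either strand) in the RefSeq windows of the 25 members that hold one, with the x axis in bases from the start site (line at 0) and one row per gene. Purple ticks are members called lower in both fasting comparisons and orange ticks are other members. The single tick of Abcg5 lies on the line at 0. Both colours carry matches, most of them before the start.

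Fasting lowered most of the synthesis pathway in both genotypes. In wild type, 23 of the 34 members were called, 20 lower and 3 higher, where 4.27% of all tested genes were called lower and 3.34% higher (7.61% together). In KO, 25 were called, 22 lower and 3 higher, where 4.89% of tested genes were called lower and 4.53% higher (9.42% together). The median log2 difference of the 34 members was -0.57 in wild type and -0.73 in KO, beside 0.01 and 0.02 over all genes tested. In wild type 16 of the called members changed at least 2-fold (0.999% of tested genes did), and in KO also 16 (1.31%). The fasted and fed wild type arrays did not overlap for 22 members with fasted lower (6.39% of tested genes) and 3 with fasted higher (6.02%). In KO the arrays did not overlap for 21 members with fasted lower (8.07%) and 2 with fasted higher (8.89%). The same 20 members were called lower in both genotypes and the same 3 called higher, 2 were called in KO alone (Ebp and Srebf2, both lower), and 9 in neither. Calls shared by both genotypes were not counted over all tested genes, so these counts have no share beside them. In this bulk tissue, fewer cells of a type and less RNA per cell cannot be told apart.

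**Figure D2:**
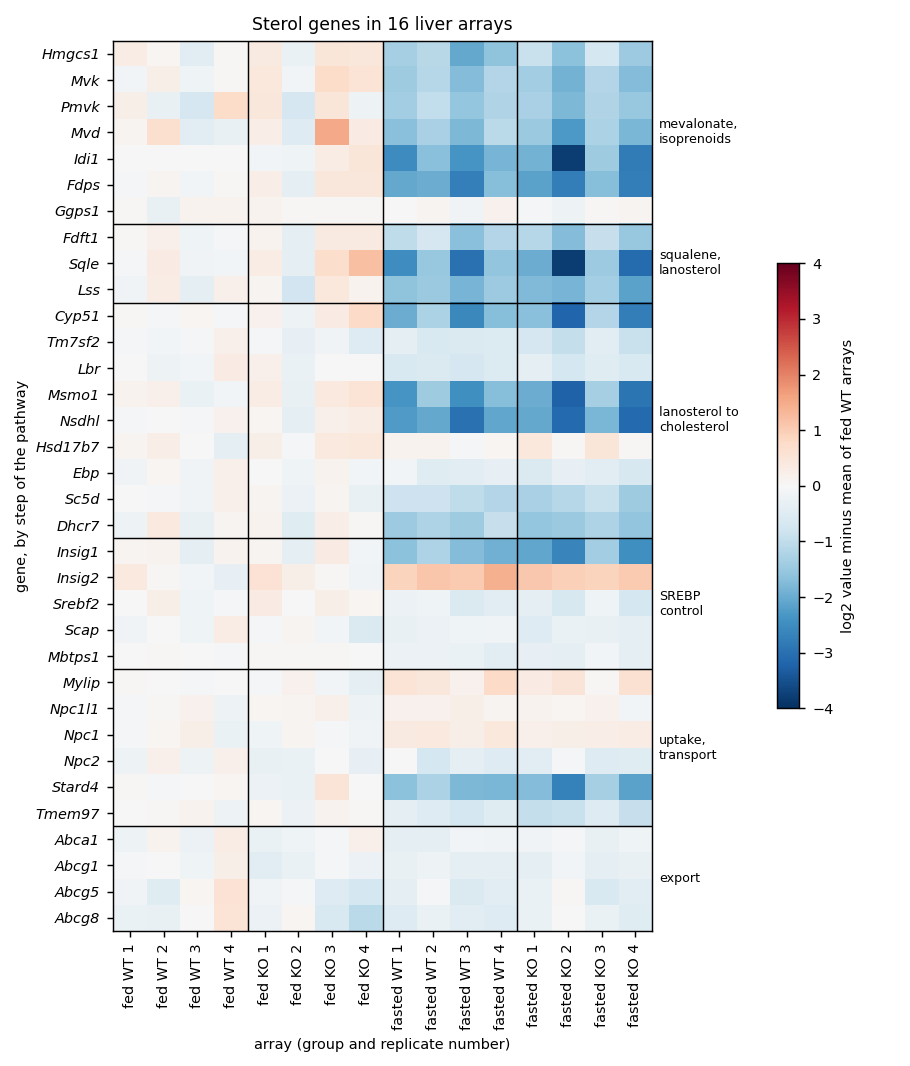
Colour shows each array's log2 value minus the mean of the 4 fed wild type arrays, for the 34 measured members (rows, by step) on the 16 arrays (columns, by group). The fasted arrays of both genotypes are blue over nearly all synthesis genes, Insig2 is red there, and the export genes at the bottom are pale, most fasted values lying slightly below the fed wild type mean.

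The mevalonate and isoprenoid step was lower by a median of 1.45 log2 units in fasted wild type, where 6 of its 7 measured genes were called lower, and the same 6 of 7 were called lower in KO with a median log2 difference of -1.94. Idi1, which isomerises the isoprenoid building blocks, read 11.28, 11.29, 11.30 and 11.31 in fed wild type and 8.79, 9.63, 8.94 and 9.45 in fasted wild type. Its values were 11.20, 11.13, 11.59 and 11.77 in fed KO and 9.40, 7.50, 9.87 and 8.48 in fasted KO. The fed and fasted arrays did not overlap, the fed wild type arrays lay almost on one another, and the fasted KO arrays were the most spread. Idi1 fell 4.27-fold in wild type (log2 difference -2.09, SE 0.35, limma adjusted p 0.00175) and 6.09-fold in KO (-2.61, SE 0.35, adjusted p 1.76e-04). A second Idi1 probe set gave log2 differences of -2.07 and -2.59.

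Fdps, which makes farnesyl diphosphate, read 10.40, 10.57, 10.34 and 10.49 in fed wild type and 8.40, 8.48, 7.73 and 8.75 in fasted wild type. In fed KO it read 10.72, 10.08, 10.89 and 10.89, and in fasted KO 8.30, 7.68, 8.76 and 7.70. Every fasted array lay more than 1 log2 unit below every fed array. The fall was 4.32-fold in wild type (-2.11, SE 0.24, limma adjusted p 9.31e-05) and 5.81-fold in KO (-2.54, SE 0.24). The other called genes of the step were Hmgcs1, the cytosolic synthase that makes HMG-CoA, the kinases Mvk and Pmvk, and the decarboxylase Mvd. Hmgcs1 went from 11.01 ± 0.30 to 9.49 ± 0.41 in wild type (2.87-fold lower) and from 11.26 ± 0.36 to 9.83 ± 0.45 in KO (2.69-fold lower). Mvk was 2.57-fold lower in fasted wild type and 3.83-fold lower in fasted KO. Pmvk was 2.45-fold lower in wild type and 2.76-fold lower in KO. Mvd was 2.74-fold lower in wild type and at least 4.32-fold lower in KO, where its fasted mean of 5.27 lay under the highest array median. The wild type call of Mvd was lost without the 3 arrays whose file name ends in 2 (fed WT 2, fed KO 4 and fasted KO 1; adjusted p 0.0658). Ggps1, which makes geranylgeranyl diphosphate for protein prenylation, had log2 differences of 0.05 in wild type and -0.09 in KO and was not called.

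All 3 measured genes between farnesyl diphosphate and lanosterol were called lower in both genotypes. Sqle, the epoxidase that adds the oxygen to squalene, read 9.22, 9.63, 9.17 and 9.18 in fed wild type and 6.81, 7.79, 6.32 and 7.72 in fasted wild type. In fed KO it read 9.58, 8.90, 10.00 and 10.51, and in fasted KO 7.32, 5.52, 7.84 and 6.23. Fed and fasted arrays did not overlap in either genotype, and the fasted arrays of both were widely spread. Sqle fell 4.41-fold in wild type (-2.14, SE 0.44, limma adjusted p 0.00646) and 8.10-fold in KO (-3.02, SE 0.44, adjusted p 3.16e-04), the lowest log2 difference of any member in KO. Lss, the cyclase that forms lanosterol, read 8.90, 9.34, 8.63 and 9.25 in fed wild type and 7.41, 7.54, 7.18 and 7.58 in fasted wild type. Fed KO arrays gave 9.13, 8.25, 9.45 and 9.16, and fasted KO arrays 7.26, 7.17, 7.67 and 6.90. Fed and fasted arrays were again apart, with fed KO 2 the lowest of the fed arrays. Lss fell 3.03-fold in wild type (-1.60, SE 0.22) and 3.36-fold in KO (-1.75, SE 0.22). Fdft1, squalene synthase, fell 2.20-fold in wild type and 2.75-fold in KO.

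From lanosterol to cholesterol, 7 of 9 measured genes were called lower in wild type and 8 of 9 in KO, with median log2 differences of -0.97 and -1.11. Nsdhl, a dehydrogenase that helps remove the methyl groups of lanosterol, read 10.74, 10.80, 10.74 and 10.98 in fed wild type and 8.54, 8.78, 7.84 and 8.73 in fasted wild type. KO levels were 10.88, 10.42, 11.02 and 11.12 with food and 8.77, 7.71, 8.98 and 7.71 after the fast. No fasted array came near a fed one, and 2 fasted KO arrays lay well below the other 2. Nsdhl fell 5.07-fold in wild type (-2.34, SE 0.27, limma adjusted p 9.31e-05), the lowest log2 difference of any member in that genotype, and 5.93-fold in KO (-2.57, SE 0.27). Msmo1, the oxidase that acts before it on the same methyl groups, read 11.45, 11.50, 11.04 and 11.20 in fed wild type and 8.95, 9.88, 8.85 and 9.59 in fasted wild type. The KO values were 11.60, 10.99, 11.68 and 11.86 fed and 9.31, 8.05, 9.96 and 8.37 fasted. The groups did not overlap, and Msmo1 fell 3.95-fold in wild type (-1.98, SE 0.33) and 6.10-fold in KO (-2.61, SE 0.33).

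The other called genes of these steps fell by less. Cyp51, the demethylase that opens this stretch of the pathway, fell 3.67-fold in wild type and 5.51-fold in KO. Dhcr7, the last reductase of one branch, fell 2.39-fold and 2.74-fold, and Sc5d, the desaturase before it, fell 1.96-fold and 2.16-fold. Tm7sf2 and Lbr, 2 sterol reductases that carry out the same reaction, fell 1.44-fold and 1.53-fold in wild type and 1.40-fold and 1.44-fold in KO. The Tm7sf2 call in KO was lost without fed KO 1, fed KO 3, fasted KO 2 or fasted KO 4 (adjusted p 0.0575 to 0.0606). Ebp, the sterol isomerase, had a log2 difference of -0.35 in wild type, with an adjusted p of 0.0519, and fell 1.39-fold in KO (-0.47, SE 0.10, adjusted p 0.00811). The wild type value of Ebp passed the threshold without fed WT 1, fed WT 3 or fasted WT 1 (adjusted p 0.0205 to 0.0485). It also passed among genes at or above the 30th percentile of mean level (adjusted p 0.0413) and with a trended variance prior in limma (adjusted p 0.0445). The KO call of Ebp was lost without the 3 arrays whose file name ends in 2 (adjusted p 0.0544). Hsd17b7, a ketosteroid reductase of the same complex as Nsdhl and Msmo1, read 10.30 ± 0.29 and 10.37 ± 0.10 in fed and fasted wild type and 10.55 ± 0.23 in both KO groups, and was not called.

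**Figure D3:**
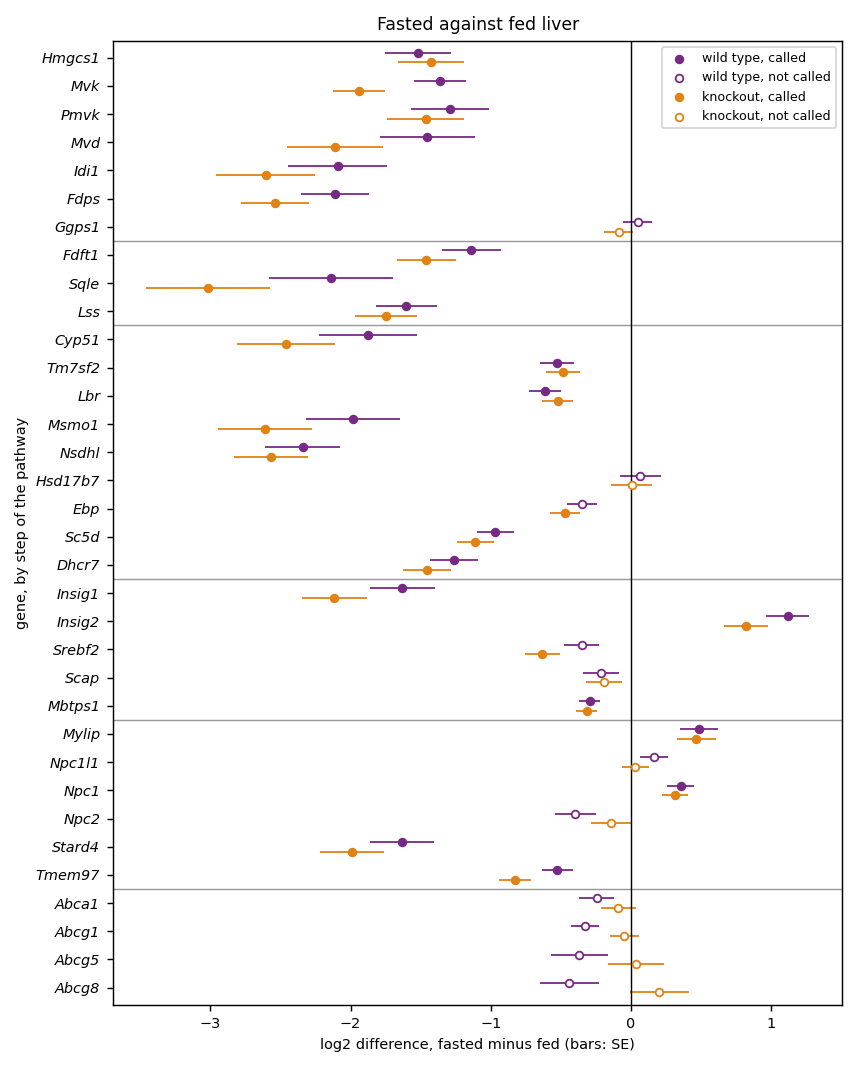
Log2 difference, fasted minus fed, for the 34 members in wild type and KO, with bars for the SE; filled points are called and open points are not. Wild type is purple and KO orange. Apart from Ggps1 and Hsd17b7, which lie at 0, the synthesis genes lie left of 0 in both genotypes, down to -3.02 (Sqle, KO), Insig2 lies right of 0 at 1.12 and 0.82, and the export genes are open, at -0.25 to -0.44 in wild type and -0.09 to 0.20 in KO.

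Among the genes of SREBP control the Insig pair moved in opposite directions. Insig1, itself a target of SREBP, read 11.55, 11.57, 11.06 and 11.60 in fed wild type and 9.80, 10.23, 9.71 and 9.52 in fasted wild type. In KO it read 11.56, 11.05, 11.76 and 11.34 when fed and 9.38, 8.79, 10.07 and 9.00 when fasted. Insig1 fell 3.10-fold in wild type (-1.63, SE 0.23, limma adjusted p 4.74e-04) and 4.34-fold in KO (-2.12, SE 0.23, adjusted p 2.69e-05), with no overlap. Insig2, which has the same retention function and in liver a transcript that insulin represses, read 11.81, 11.47, 11.34 and 11.11 in fed wild type and 12.34, 12.53, 12.49 and 12.84 in fasted wild type. KO levels were 11.996, 11.68, 11.47 and 11.28 with food and 12.51, 12.38, 12.32 and 12.49 after the fast. Every fasted array lay above every fed array of its genotype, and the rise was 2.17-fold in wild type (1.12, SE 0.15, limma adjusted p 4.01e-04) and 1.76-fold in KO (0.82, SE 0.15, adjusted p 0.00245).

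The rest of the control group moved by less. Srebf2, which encodes the SREBP that drives sterol synthesis, had a log2 difference of -0.35 in wild type, with an adjusted p of 0.104, although the wild type arrays did not overlap, and fell 1.55-fold in KO (-0.63, SE 0.13, limma adjusted p 0.00370). Mbtps1, the first of the proteases that cut SREBP, fell 1.23-fold in wild type (-0.29, adjusted p 0.0211) and 1.25-fold in KO (-0.32, adjusted p 0.0108). The wild type call of Mbtps1 was lost without fed WT 2 (adjusted p 0.05265) and without fasted WT 4 (adjusted p 0.0794), and when each array was centred on its median (adjusted p 0.0839). Scap had log2 differences of -0.21 and -0.19 and was not called.

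Uptake and transport genes split, with 2 called higher and 2 called lower of 6 in each genotype. Stard4, a soluble carrier of cholesterol between membranes, read 9.21, 9.08, 9.14 and 9.23 in fed wild type and 7.53, 7.89, 7.36 and 7.34 in fasted wild type. The KO values were 8.92, 8.90, 9.69 and 9.18 fed and 7.42, 6.45, 7.84 and 7.02 fasted. The groups did not overlap, and Stard4 fell 3.10-fold in wild type (-1.63, SE 0.23, limma adjusted p 4.54e-04) and 3.97-fold in KO (-1.99, SE 0.23, adjusted p 4.14e-05). Tmem97, a membrane protein of the endoplasmic reticulum that binds Npc1, read 11.13, 11.16, 11.26 and 10.91 in fed wild type and 10.76, 10.59, 10.40 and 10.62 in fasted wild type. Fed KO arrays gave 11.20, 10.89, 11.27 and 11.17, and fasted KO arrays 10.17, 10.24, 10.59 and 10.20. Each fasted group lay below its fed group, and Tmem97 fell 1.44-fold in wild type (-0.53, SE 0.11) and 1.78-fold in KO (-0.83, SE 0.11). A second Tmem97 probe set gave -0.47 and -0.74.

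The members called higher in this group were Mylip and Npc1, and both calls were fragile. Mylip, the ubiquitin ligase that degrades lipoprotein receptors, read 8.21, 8.15, 8.08 and 8.16 in fed wild type and 8.69, 8.62, 8.31 and 8.91 in fasted wild type. In KO it read 8.12, 8.31, 8.03 and 7.76 when fed and 8.49, 8.66, 8.19 and 8.75 when fasted. The wild type groups did not overlap, while fasted KO 3 lay below fed KO 2. Mylip rose 1.40-fold in wild type (0.48, SE 0.14, limma adjusted p 0.0388) and 1.38-fold in KO (0.47, SE 0.14, adjusted p 0.0402). The wild type call was lost without any of fed WT 1 to 4, fasted WT 1, fasted WT 2, fasted WT 4 or fasted KO 1 (adjusted p 0.0501 to 0.134). The KO call was lost without fed KO 1, fed KO 3, fed KO 4, fasted WT 2, fasted KO 1, fasted KO 2 or fasted KO 4 (adjusted p 0.0514 to 0.131). With every probe set fitted, both Mylip calls were lost (limma adjusted p 0.0765 in wild type and 0.0720 in KO). A fit on only the groups compared also lost the KO call (limma adjusted p 0.0605).

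Npc1, which carries cholesterol out of the lysosome, read 11.07, 11.18, 11.33 and 10.84 in fed wild type and 11.46, 11.50, 11.34 and 11.53 in fasted wild type. The KO values were 10.93, 11.22, 11.03 and 10.96 fed and 11.30, 11.33, 11.36 and 11.39 fasted. No fasted array fell within the fed range of its genotype, though fasted WT 3 stood just above fed WT 3. Npc1 rose 1.28-fold in wild type (0.35, SE 0.09, limma adjusted p 0.0297) and 1.24-fold in KO (0.31, SE 0.09, adjusted p 0.0470). The wild type call was lost without fed WT 1, fed WT 4, fasted WT 2 or fasted WT 4 (adjusted p 0.0692 to 0.0962). The KO call was lost on leaving out any of 12 arrays, all except fed WT 3, fed WT 4, fed KO 2 and fasted WT 3 (adjusted p 0.0512 to 0.129), and with the position code of the array file names as a block (adjusted p 0.0569). It was also lost after cyclic loess (limma adjusted p 0.0512). With every probe set fitted, both Npc1 calls were lost (limma adjusted p 0.0552 in wild type and 0.0748 in KO). A fit on only the groups compared lost the wild type call (limma adjusted p 0.104). Npc2, the soluble partner of Npc1, had log2 differences of -0.40 (adjusted p 0.111) and -0.14 and was not called, although without fasted WT 1 the wild type value passed (adjusted p 0.0245). Npc1l1, the sterol importer of the gut, read 4.06 to 4.51 on all 16 arrays, under every array median, so little can be read from its differences of 0.17 and 0.03.

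**Figure D4:**
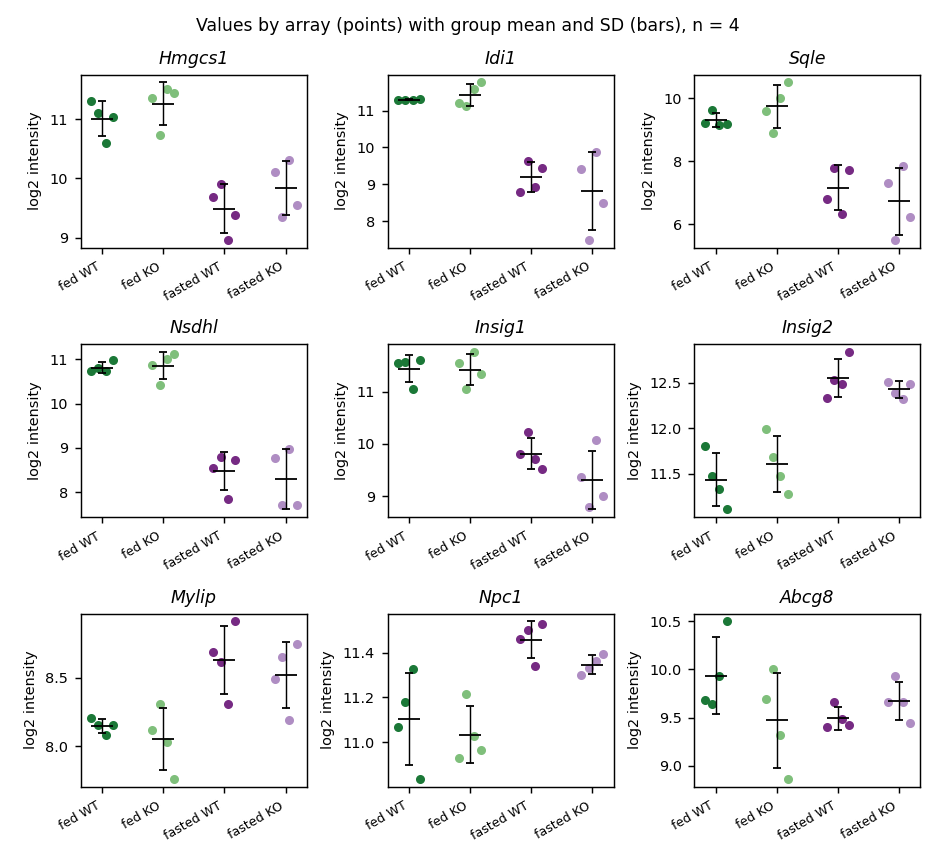
Log2 intensity by array for 9 members, one panel each with its own y axis, with points for the 4 arrays of each group and bars for the mean and SD. Hmgcs1, Idi1, Sqle, Nsdhl and Insig1 drop with fasting without overlap, Insig2 and Npc1 rise without overlap within a genotype, Mylip rises with overlap in KO, and Abcg8 overlaps throughout.

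None of the 4 export genes was called for fasting in either genotype, although all 4 log2 differences were below 0 in wild type. Abcg1, a transporter that passes cholesterol to lipoproteins, read 7.36, 7.46, 7.26 and 7.67 in fed wild type and 7.14, 7.24, 7.04 and 7.04 in fasted wild type. Fed KO arrays gave 7.01, 7.19, 7.38 and 7.21, and fasted KO arrays 7.07, 7.34, 7.03 and 7.15. The wild type groups stood just apart and the KO groups overlapped, with log2 differences of -0.33 (limma adjusted p 0.0595) and -0.05. Without fed WT 3 the wild type value of Abcg1 passed the threshold (adjusted p 0.0409), as it did with the position code as a block (adjusted p 0.0455) and among genes at or above the 30th percentile of mean level (adjusted p 0.0472). Abca1, which loads cholesterol onto apolipoprotein A-I, read 10.29, 10.66, 10.27 and 10.81 in fed wild type and 10.12, 10.15, 10.40 and 10.37 in fasted wild type. In KO it read 10.24, 10.33, 10.44 and 10.71 when fed and 10.38, 10.42, 10.22 and 10.34 when fasted, so the groups overlapped in both genotypes, with log2 differences of -0.25 and -0.09.

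Abcg5 and Abcg8 encode the partners of 1 transporter that moves sterols into bile. Abcg5 read 10.07, 9.72, 10.28 and 10.79 in fed wild type and 9.83, 10.16, 9.65 and 9.75 in fasted wild type, and in KO 10.08, 10.15, 9.69 and 9.52 when fed and 9.96, 10.25, 9.60 and 9.78 when fasted. Abcg8 read 9.68, 9.64, 9.93 and 10.50 in fed wild type and 9.40, 9.67, 9.49 and 9.42 in fasted wild type, and in KO 9.70, 10.00, 9.32 and 8.87 when fed and 9.66, 9.93, 9.66 and 9.44 when fasted. In both genes fed WT 4 was the highest array of all 16 and fed KO 4 the lowest. The fasting differences were -0.37 and 0.04 for Abcg5 and -0.44 (adjusted p 0.235) and 0.20 for Abcg8, in wild type and KO. Single arrays moved these values: without fed WT 4 the wild type differences were -0.18 for Abcg5, -0.25 for Abcg8 and -0.14 for Abca1. The KO difference of Abcg8 was 0.0011 without fed KO 4, 0.12 without fasted KO 2 and 0.38 without fed KO 2, and that of Abcg5 took either sign (-0.084 to 0.13) as single arrays were left out.

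Within groups, the same arrays were often the highest or the lowest across the synthesis genes. The mean level of the 19 synthesis genes was 9.79, 9.87, 9.60 and 9.85 in fed wild type and 8.44, 8.73, 8.14 and 8.64 in fasted wild type. It was 9.96, 9.46, 10.16 and 10.04 in fed KO and 8.53, 7.89, 8.81 and 8.06 in fasted KO. The fed and fasted means did not overlap, and the fasted KO arrays fell into a higher pair (1 and 3) and a lower pair (2 and 4). These pairs match the position code of the array file names, which is 5 for arrays 1 and 3 of every group and 7 for arrays 2 and 4. In fed and fasted wild type the order was opposite, arrays 2 and 4 lying above 1 and 3, and in fed KO the codes were mixed. The part of the position code in these orders was not tested. Of the 16 synthesis genes called lower in both genotypes, fasted KO 3 was the highest array of its group in 15 and fasted KO 2 the lowest in 12, with fasted KO 4 lowest in the other 4. Fed KO 2 was the lowest of its group in 14, fed WT 3 in 11 and fasted WT 3 in 12. These orders describe arrays that share genes of 1 pathway and are no test.

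Knockout against wild type gave no called member. In fasted mice 0 of 34 members were called by limma (0.0159% of all tested genes were) and 2 had an unadjusted p under 0.05 (5.49% of tested genes did), with a median log2 difference of -0.16 and a smallest adjusted p of 0.867. Without fasted KO 2 that median was -0.07, and it ran from -0.23 to -0.07 as each array was left out. The 2 members were Tmem97, at -0.29 in KO against wild type (95% interval -0.53 to -0.05, unadjusted p 0.0201 in limma), and Insig1 at -0.51 (-0.99 to -0.02, unadjusted p 0.0438 in limma). The Insig1 value was -0.33 without fasted KO 2 and -0.76 without fasted KO 3. The fasted arrays of both genotypes overlapped for both genes. In fed mice 0 of 34 were called (0.00531%) and 4 had an unadjusted p under 0.05 (5.76%), with a median of 0.01 (-0.02 without fed KO 3, 0.10 without fed KO 2) and a smallest adjusted p of 0.855. Abcg1 was at -0.24 (-0.46 to -0.03, unadjusted p 0.0281 in limma) and Abcg8 at -0.46 (-0.90 to -0.02, unadjusted p 0.0403 in limma). The other 2 were Mvk at 0.40 and Tm7sf2 at -0.26. Without fed KO 4, the array with the high acute phase genes, the Abcg8 value was -0.26, and without fed WT 4 it was -0.28; the part of the acute phase difference in it was not tested.

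The intervals bound what 4 against 4 arrays could show. For 30 of 34 members in fasted mice and 31 in fed mice the whole 95% interval of the genotype difference lay within a 2-fold change either way, and for 20 and 22 within 1.5-fold. The widest interval in both states was that of Sqle and the narrowest that of Mbtps1. A value that missed the threshold does not show equal levels.

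The response to fasting was then compared between genotypes. Of the 20 members called lower in both, 17 had the larger fall in KO. These genes were read on the same arrays, and the same count over all tested genes was not made. The median difference of responses over the 34 members was -0.14, beside 0.01 over all genes tested. It ran from -0.25 to -0.08 as each array was left out. The difference of the responses was called for 0 of 34 members by limma (0% of tested genes). In that comparison 2 members had an unadjusted p under 0.05 (4.91% of tested genes), and the smallest adjusted p was 0.948. Mvk had the smallest p, with 8.02, 8.36, 7.94 and 8.18 in fed wild type, 8.55, 8.01, 8.85 and 8.68 in fed KO, 6.71, 6.99, 6.39 and 6.96 in fasted wild type and 6.74, 6.25, 6.94 and 6.40 in fasted KO. Its fed KO arrays tended high and its fasted arrays overlapped between genotypes, and the difference of responses was -0.58 (95% interval -1.13 to -0.03, unadjusted p 0.0407 in limma). Abcg8 followed at 0.64 (0.02 to 1.26, unadjusted p 0.0438 in limma), which rests on the same fed arrays as its fed genotype difference. Averaged over feeding, 0 of 34 were called (0.00531%) and 1 had an unadjusted p under 0.05 (6.17%), Tm7sf2 at -0.23 (unadjusted p 0.0141 in limma, adjusted p 0.783). Tm7sf2 read 10.64, 10.59, 10.61 and 10.90 in fed wild type and 10.63, 10.36, 10.55 and 10.17 in fed KO. When fasted it read 10.29, 10.09, 10.10 and 10.14 in wild type and 10.00, 9.73, 10.26 and 9.78 in KO, with overlap in both states. Hsd17b7 came next at 0.21 and read 10.41, 10.58, 10.32 and 9.90 in fed wild type and 10.53, 10.22, 10.70 and 10.73 in fed KO. When fasted it read 10.44, 10.43, 10.22 and 10.38 in wild type and 10.73, 10.33, 10.77 and 10.36 in KO, again with overlap.

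**Figure D5:**
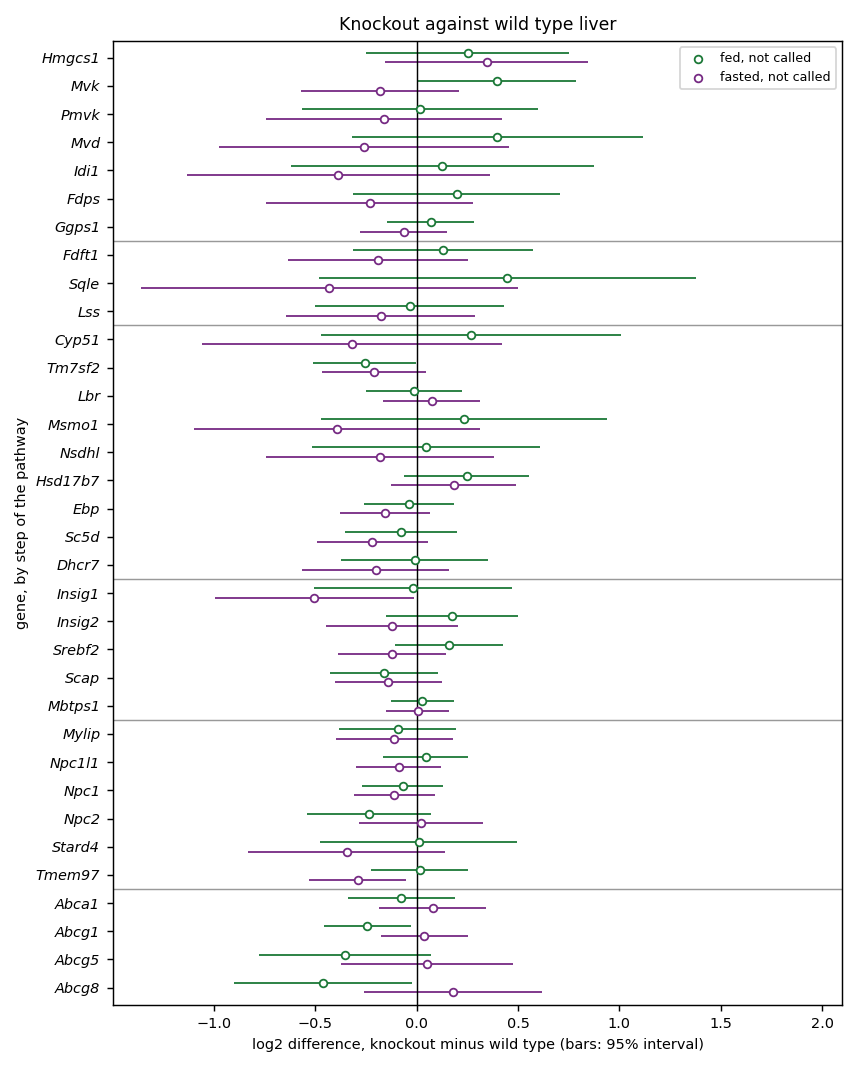
Log2 difference, KO minus wild type, for the 34 members in fed (green) and fasted (purple) mice, with bars for the 95% interval; all points are open because none was called. Most intervals cross 0, and Sqle has the widest in both states.

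Other genes of the pathway were read from a list of 56, of which 45 were measured. In wild type fasting 3 of the 45 were called higher and 4 lower (3.34% and 4.27% of all tested genes), and in KO 5 higher and 8 lower (4.53% and 4.89%), with 0 called by limma in the genotype comparisons. Srebf1, which encodes the SREBP better known for fatty acid synthesis, went from 9.45 ± 0.33 to 7.08 ± 0.16 in wild type (5.17-fold lower) and from 9.57 ± 0.45 to 7.51 ± 0.16 in KO (4.18-fold lower). Nceh1, a hydrolase of cholesteryl esters, went from 8.96 ± 0.44 to 10.08 ± 0.15 in wild type (2.18-fold higher) and from 9.25 ± 0.23 to 10.47 ± 0.19 in KO (2.33-fold higher). Also called higher in both were Rabggtb, a subunit of a prenyl transferase, with log2 differences of 0.43 and 0.29, and Ufd1, which helps extract proteins from the endoplasmic reticulum for degradation, with 0.36 and 0.57. Vldlr, a lipoprotein receptor (at least 1.87-fold higher), and Lipa, the lysosomal esterase (log2 difference 0.46), were called higher in KO and not in wild type, and the difference of responses was not called for either. The Vldlr arrays of fed and fasted KO overlapped. The other genes called lower in both genotypes were the reductase Cyb5r3 (1.64-fold and 1.60-fold) and the receptor chaperone Lrpap1 (1.31-fold and 1.35-fold). Erlin1 was called lower in wild type (1.70-fold), and in KO the lipoprotein receptor Lrp1 (log2 difference -0.32), the sorting receptor Sort1 (-0.71), the sterol transfer protein Gramd1c (-0.53), the ubiquitin ligase Rnf139 (-0.29) and the oxysterol hydroxylase Cyp7b1 (-1.32, 2.50-fold) were called lower. Of 10 measured genes of the isoprenoid branches to dolichol, ubiquinone and prenylated proteins, 1 was called in each genotype, Rabggtb, a share near that of all tested genes (7.61% and 9.42%).

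Marker levels of other liver cells were read beside these values. The stellate cell list (8 of 8 measured) had mean levels of 8.00 to 8.22 in fed wild type, 7.92 to 8.11 in fed KO, 7.80 to 7.95 in fasted wild type and 7.79 to 7.86 in fasted KO, with 2 of the 8 called lower on fasting in each genotype (4.27% and 4.89% of all tested genes in wild type and KO). The Kupffer cell and macrophage list (11 of 11 measured) read 8.48 to 9.13 in fed wild type, 8.35 to 8.63 in fed KO, 8.11 to 8.65 in fasted wild type and 7.90 to 8.65 in fasted KO, with 2 called lower in wild type and 1 in KO, beside the same shares of all tested genes. Endothelial markers (8 of 8 measured) read 8.84 to 9.28 and cholangiocyte markers (5 of 6 measured) 5.06 to 5.46 over all arrays. The cholangiocyte levels lay near the array medians of 5.19 to 5.29. The part of the stellate and macrophage differences in the fasting values was not tested. Without fasted WT 4, the array with the pancreatic genes, 20 of the 34 members were called in wild type fasting (19 lower, 1 higher), the calls lost being those of Mbtps1, Mylip and Npc1.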

How the data were processed

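Total liver RNA was labelled with biotin after whole-transcript cDNA synthesis, per the labels' protocols. The values deposited by the authors are on a log2 scale and came from RMA (background correction, quantile normalisation and probe set summary by default), per the submitters' processing notes. Its version and the array annotation were not given in the sources used here. There were 35556 probe sets. Of these, 23099 were in the probe-gene table, 21218 with 1 symbol, 21185 of which matched a RefSeq gene, and 1881 with several. No filter on dim genes was applied.

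A mean per group was fitted to all 16 arrays with limma 3.58.1 in R 4.3.3 (12 residual and 4.66 prior degrees of freedom). Tests were two-sided, with p adjusted by Benjamini-Hochberg over 18820 genes per comparison. The procedure was tested on simulated data. Figures and letter searches used Python 3.11.15. The 38 genes, the list of 56 related genes and the marker lists were chosen with earlier results of these data known.

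Values of every array are printed for the 2 genes per step with the largest mean fasting difference, called genes against the majority, the Insig and Abcg5/Abcg8 pairs, and the 2 smallest p of each genotype comparison. Alternatives were other normalisations, a filter, other probe set rules, variance priors, array weights, blocks for the replicate number and for the position code in the array file names, subsets of arrays and thresholds. Precision is limited by 4 arrays per group.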

Additional observations from a re-analysis of the deposited data

Results flagged for a closer look

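In 6 of 136 sets of 4 arrays (34 members in 4 groups), 1 array lay far from the other 3 by Dixon's criterion, which chance alone meets in about 1 in 20 groups. In fed wild type, Sqle was 9.63 on fed WT 2 and 9.17 to 9.22 on the others, and Insig1 was 11.06 on fed WT 3 and 11.55 to 11.60 on the others. In the fasted groups, Mbtps1 was 8.85 on fasted WT 4 (others 9.04 to 9.08) and 9.20 on fasted KO 3 (others 8.93 to 8.97). In fasted KO, Npc2 was 7.78 on fasted KO 2 (others 7.35 to 7.42), and Tmem97 was 10.59 on fasted KO 3 (others 10.17 to 10.24). The wild type call of Mbtps1 was lost without fasted WT 4. The calls of Sqle, Insig1 and Tmem97, and that of Mbtps1 in KO, held without the array that stood apart.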

How the results depend on the processing

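The counts of called members stayed within 1.5 times the values given, under every alternative run. On leaving out each array in turn, 20 to 24 members were called in wild type fasting, 22 to 25 in KO fasting and 0 in the genotype comparisons and the difference of responses. With the replicate number as a block, 23 were called in wild type (3 higher, 20 lower) and 24 in KO (2 higher, 22 lower), with Npc1 lost in KO (adjusted p 0.0619), and 0 in the genotype comparisons. After group means were taken off, 4 of 24 pairings of same-numbered arrays correlated above 0.1 (range -0.22 to 0.21). Arrays of different number were not compared in this way, so the check cannot decide whether the numbers pair the samples. Without the 3 arrays whose name ends in 2 (its meaning is not known here), 19 were called in wild type and 21 in KO, Mbtps1, Mylip and Npc1 being lost in both, Mvd in wild type and Ebp in KO. At an adjusted p below 0.01 the counts were 18 and 21. The shares of all tested genes given earlier belong to the main fit, and those of the alternatives are not given here. Without them, the counts alone do not tell a loss among the members from a loss over all genes.

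Only uncalled values turned sign. In KO fasting, Hsd17b7 was -0.0082 after cyclic loess, Npc1l1 was -0.018 and Abcg5 -0.079 with array weights, and Npc1l1 was -0.074 and Abcg5 -0.099 without the 3 arrays named above. Without fasted WT 4 and fed KO 4, Npc1l1 was -0.0515, Abcg5 -0.079 and Abca1 0.0031 in KO. Ggps1 in wild type was -0.056 without the 3 arrays. On leaving out each array in turn the values ranged as follows. Ggps1 in wild type ranged from -0.056 to 0.11, Hsd17b7 from -0.067 to 0.16 in wild type and from -0.10 to 0.075 in KO, and in KO Npc1l1 from -0.0515 to 0.095, Abca1 from -0.15 to 0.0031, Abcg1 from -0.11 to 0.016 and Abcg5 from -0.084 to 0.13. The cause was not tested. A fit on only the groups compared could not be made for the difference of responses or the averaged contrast, which need all 4 groups.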
